A study of Mus musculus with 64 samples.

Results

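The type I interferon response genes described here are 49 genes that cells switch on when interferon alpha or beta reaches their surface. They were chosen by name as a module and make up 49 of the 45708 genes in the count table. In the table, 46 were found by their symbol and 3 by gene identifier, because the table lists Ifi207, Ifi209 and Ifi211 under the older names AI607873, Pyhin1 and Mnda. The RNA came from mouse microglia, which are macrophages that live in the brain, isolated by sorting for CD11b and CD45. The labels give each mouse as KO, Het or WT for RISP. This is the iron-sulphur subunit of mitochondrial complex III, and Uqcrfs1 encodes it. The 64 libraries form 12 groups. KO adults gave 13 naive, 2 depletion, 4 repopulation and 6 cuprizone libraries. Het adults gave 13 naive, 2 depletion, 4 repopulation and 4 cuprizone libraries, and old naive Het mice gave 3 libraries. WT adults gave 5 naive, 4 depletion and 4 repopulation libraries. Depletion and repopulation refer to PLX3397, an inhibitor of the receptor CSF1R on which microglia depend, and to the return of microglia to the brain. Cuprizone is a copper chelator that damages oligodendrocytes and strips myelin. The labels used here state no dose, day, age in weeks, floxed allele or Cre driver, and do not say whether libraries are separate animals, so p-values measure the spread between these libraries.

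Type I interferons bind the receptor chains Ifnar1 and Ifnar2, whose kinases Jak1 and Tyk2 act on transcription factors such as Stat2. Stat2 and Irf9 are part of the complex ISGF3, which binds the interferon-stimulated response element (ISRE) in promoters. Irf7 amplifies interferon production, and Usp18 and the ubiquitin-like protein Isg15 act in a feedback that restrains receptor signalling. The induced proteins sense viral RNA or DNA (Ddx58, Ifih1, Dhx58, Zbp1, Eif2ak2), start RNA decay (the OAS family), bind foreign RNA (the IFIT family) or act on pathogen membranes (guanylate-binding proteins). In the brain, microglia with high levels of these genes are known from ageing, injury and viral infection.

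Promoters of members that carry the main results are shown because the ISRE core is the sequence through which ISGF3 acts. RefSeq promoter windows (build GRCm38.p6, 250 bases before to 50 after the gene start, on the gene's strand) were matched for 40 of the 49 members. The core searched was GAAA followed, after 2 bases of any kind, by GAAA again, on either strand, with overlapping matches counted. It occurred in 25 of the 40 members with a window (62.5%), compared with 3.99% of the 27025 genes in the same RefSeq table. The gamma-activated core TTCNNNGAA, which reads the same on both strands, occurred in 6 of the 40 (15%), compared with 9.55% of those genes. These matches describe letters in a window and were not tested for binding. Ifit3 was chosen by the naming rule. Oas1a, Gbp2, Gbp3, Gbp7 and Slfn8 were chosen after their values had been seen, because they were lower in KO than in Het and WT repopulation libraries. The capitals mark the ISRE cores.
Ifit3, chr19:34583279-34583578, plus strand: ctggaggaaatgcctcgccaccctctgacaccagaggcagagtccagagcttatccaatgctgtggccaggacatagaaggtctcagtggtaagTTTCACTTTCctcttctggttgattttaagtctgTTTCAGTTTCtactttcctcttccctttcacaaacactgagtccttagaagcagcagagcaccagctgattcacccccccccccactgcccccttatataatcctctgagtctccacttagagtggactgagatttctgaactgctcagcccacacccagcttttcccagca
Oas1a, chr5:120907476-120907775, minus strand: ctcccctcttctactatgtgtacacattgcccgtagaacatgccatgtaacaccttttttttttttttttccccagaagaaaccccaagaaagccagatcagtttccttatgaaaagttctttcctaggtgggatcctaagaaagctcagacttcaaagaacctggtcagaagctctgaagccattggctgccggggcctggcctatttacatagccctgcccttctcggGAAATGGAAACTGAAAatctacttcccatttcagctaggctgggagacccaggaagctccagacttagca
Gbp2, chr3:142620413-142620712, plus strand: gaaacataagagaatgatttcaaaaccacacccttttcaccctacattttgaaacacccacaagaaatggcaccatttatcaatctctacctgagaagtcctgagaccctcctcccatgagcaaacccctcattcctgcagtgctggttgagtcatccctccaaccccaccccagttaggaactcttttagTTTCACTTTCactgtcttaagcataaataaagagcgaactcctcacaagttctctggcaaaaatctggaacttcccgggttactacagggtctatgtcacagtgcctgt
Gbp3, chr3:142559794-142560093, plus strand: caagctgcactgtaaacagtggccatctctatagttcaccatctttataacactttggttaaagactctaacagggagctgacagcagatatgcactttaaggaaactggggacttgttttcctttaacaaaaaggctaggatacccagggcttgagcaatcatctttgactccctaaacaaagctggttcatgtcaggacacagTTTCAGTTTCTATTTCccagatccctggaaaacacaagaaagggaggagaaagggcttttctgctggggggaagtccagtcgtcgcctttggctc
Gbp7, chr3:142530086-142530385, plus strand: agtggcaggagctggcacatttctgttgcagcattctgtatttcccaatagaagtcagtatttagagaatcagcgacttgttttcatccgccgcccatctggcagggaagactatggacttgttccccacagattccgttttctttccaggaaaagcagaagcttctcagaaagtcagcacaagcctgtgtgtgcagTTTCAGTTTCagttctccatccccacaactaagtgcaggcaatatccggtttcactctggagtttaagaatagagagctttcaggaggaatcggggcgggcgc
Slfn8, chr11:83020761-83021060, minus strand: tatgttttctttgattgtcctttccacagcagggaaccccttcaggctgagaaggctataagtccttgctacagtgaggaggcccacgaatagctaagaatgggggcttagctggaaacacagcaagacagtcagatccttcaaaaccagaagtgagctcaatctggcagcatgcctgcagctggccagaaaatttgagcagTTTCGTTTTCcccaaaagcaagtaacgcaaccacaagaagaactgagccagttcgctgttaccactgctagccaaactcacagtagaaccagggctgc
Ifit3 has cores 156 and 122 bases before the start. Gbp2, Gbp7 and Slfn8 have 1 core each, 59, 53 and 48 bases before it. Oas1a and Gbp3 each have a pair of overlapping cores, 20 and 14 bases before the start in Oas1a and 45 and 39 bases before it in Gbp3. Ifit2, Ifi209, Lgals3bp and Slfn2 have a RefSeq window without the core letters.

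The libraries fell into batches by the share of counts on the non-coding genes Gm26917 and Yam1 and by depth. The 34 non-coding-poor libraries (under 1% of counts on those genes, 9.32 to 16.3 M counts, with M for 1000000) hold KO and WT naive replicates 1 to 5, Het naive replicates 1 to 4 and all PLX3397 libraries. A further 13 naive libraries of KO and Het held 6.38 to 11.7 M counts (middle depth), 7 naive libraries 15.9 to 24.0 M (deep, including the old Het), and the 10 cuprizone libraries 2.70 to 5.10 M. Groups were compared within a batch, except cuprizone with naive, where batch and treatment cannot be told apart. The labels put untreated KO and WT mice on another sequencer model than all other samples. This is given for kinds of sample rather than for single libraries, so for KO and WT its share in the differences of repopulation or depletion from naive cannot be told apart from treatment. The same holds for genotype in naive KO against naive Het, for the Het part of the naive controls and for the interaction against naive. Uqcrfs1 reached 5.69 to 10.2 counts per 1000000 library counts (CPM) in KO naive non-coding-poor libraries, against 21.3 to 39.9 CPM in Het libraries, and 36.9 to 49.6 CPM in WT, and ranges of KO and controls did not overlap in any batch or treatment. The summed level of 12 microglia markers lay between 13490 and 56780 CPM in every library. Fold changes were scaled by TMM, which placed them 0.11 to 0.159 higher on the log2 scale than CPM does at repopulation against naive and 0.157 higher in KO against Het at middle depth. In bulk samples, fewer cells of a type and less RNA per cell cannot be told apart.

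**Figure D1:**
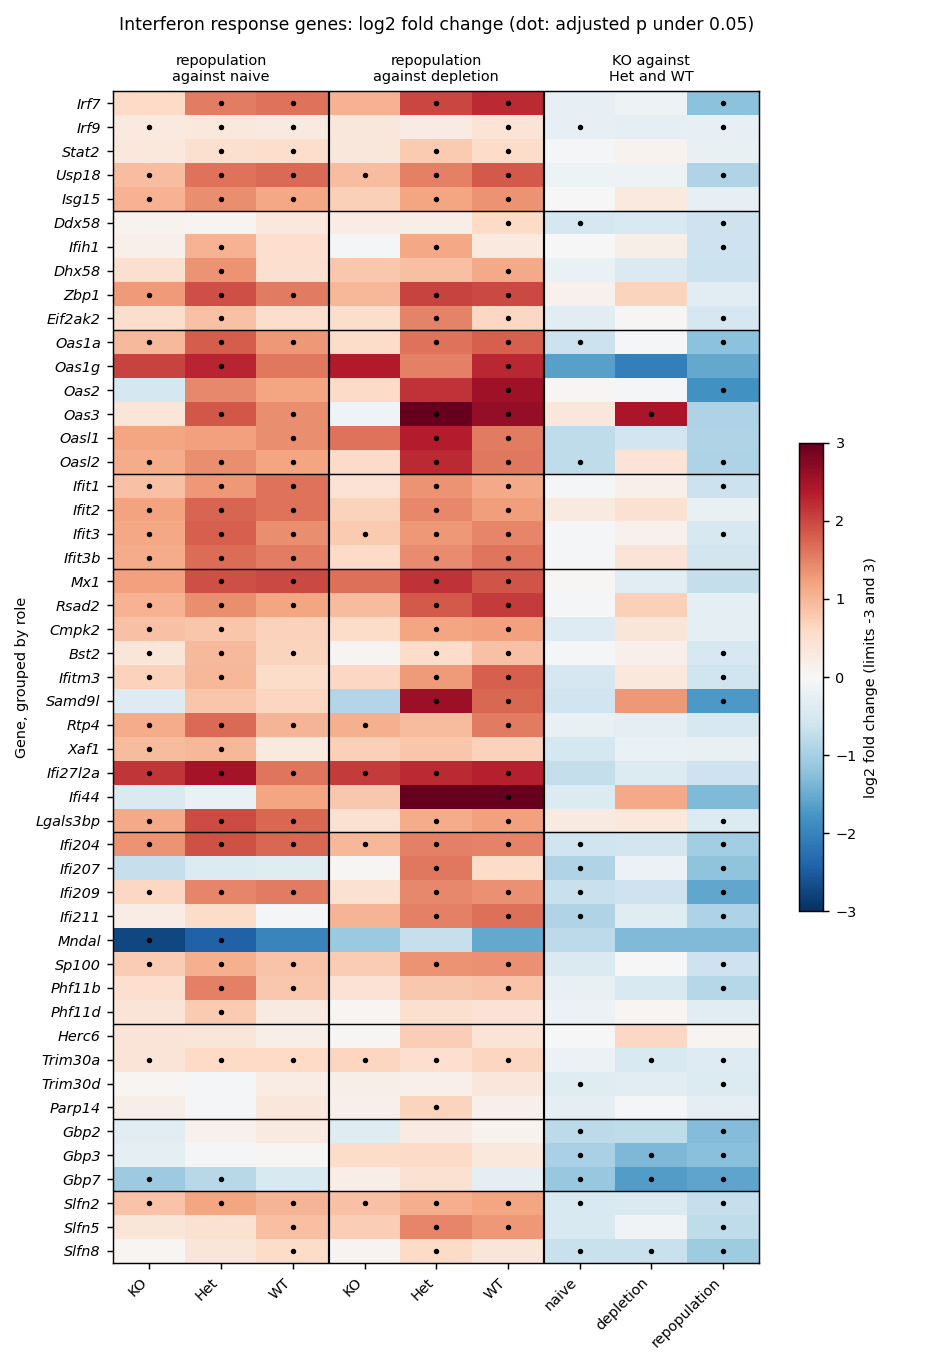
Heat map of log2 fold changes of the 49 members (rows, grouped by role) in 9 comparisons within the non-coding-poor libraries (columns), with dots where the adjusted p was under 0.05. Red cells fill most rows of the repopulation columns, and the column of KO against controls at repopulation holds 29 dots, all on blue cells.

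Repopulated microglia carried more RNA of the interferon response than naive microglia in each genotype. Of the 49 members, 23 rose and 2 fell in KO, 33 rose and 2 fell in Het, and 28 rose and 0 fell in WT (edgeR quasi-likelihood test, Benjamini-Hochberg adjusted p under 0.05). Over all 15664 genes tested, 5.41% rose and 3.24% fell in KO, 7.28% rose and 5.97% fell in Het, and 4.95% rose and 2.75% fell in WT. The median log2 fold change of the members was 0.54 in KO, 1.08 in Het and 0.86 in WT, against -0.01, 0.02 and -0.01 over all genes. The same 20 members rose in all 3 genotypes. A further 5 rose in Het and WT without passing in KO (Irf7, Mx1, Oas3, Phf11b and Stat2), and 0 passed in KO alone. The Oas3 call in WT was lost in 9 of 16 alternatives. Passing in some genotypes and not in others is no test of a difference between them. With only the compared groups in the fit, 16 members were called in KO.

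Usp18, the protease that removes Isg15 and blocks the receptor, had 10.9, 15.7, 15.7 and 13.7 CPM in KO repopulation libraries, against 6.64, 9.33, 6.37, 11.96 and 6.47 CPM in KO naive libraries. In Het it had 28.0, 20.8, 25.4 and 31.3 CPM at repopulation and 7.88, 9.67, 8.47 and 10.8 CPM in naive libraries. In WT it had 24.4, 33.3, 19.5 and 27.7 CPM at repopulation and 6.65, 11.6, 9.89, 8.72 and 8.01 CPM in naive libraries. Het and WT repopulation libraries all lay above their naive libraries, and the lowest KO repopulation library lay just under the highest KO naive one. The log2 fold change was 0.92 ± 0.19 in KO, 1.63 ± 0.20 in Het and 1.71 ± 0.19 in WT (± SE), with adjusted p of 0.00134, 5.72e-07 and 8.55e-08. Among the other regulators, Isg15 rose by 1.04 ± 0.24 in KO, 1.38 ± 0.26 in Het and 1.17 ± 0.24 in WT (log2 ± SE). Irf9 passed in each genotype with 0.30 ± 0.08 in KO, 0.32 ± 0.09 in Het and 0.26 ± 0.08 in WT, and lost its call in 6 of 16 alternatives in KO, 2 of 15 in Het and 12 of 16 in WT. Irf7 rose by 1.54 ± 0.37 in Het and 1.63 ± 0.35 in WT, and Stat2 by 0.47 ± 0.16 and 0.52 ± 0.15. The Stat2 call was lost in 10 of 15 alternatives in Het and 7 of 16 in WT.

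The IFIT proteins bind foreign RNA and block its translation, and all 4 IFIT members rose in every genotype. Ifit2 had 40.2, 40.7, 39.0 and 39.3 CPM in KO repopulation libraries, against 15.1, 22.6, 18.4, 21.9 and 17.2 CPM in KO naive libraries. Het libraries had 49.3, 39.1, 50.1 and 46.5 CPM at repopulation and 13.02, 14.4, 15.3 and 16.8 CPM in naive libraries, and in WT 39.4, 55.7, 34.1 and 59.4 CPM and 15.1, 25.7, 16.4, 15.5 and 12.7 CPM. The groups did not overlap in any genotype. Its log2 fold change was 1.21 ± 0.17 in KO, 1.75 ± 0.19 in Het and 1.63 ± 0.17 in WT. Ifit3, whose promoter is printed above, had 37.8, 38.3, 33.3 and 41.6 CPM in KO repopulation libraries, against 18.1, 20.04, 16.1, 25.1 and 13.9 CPM in KO naive libraries. The Het values were 54.6, 49.1, 65.7 and 47.8 CPM at repopulation and 18.9, 15.4, 13.6 and 19.2 CPM in naive libraries, and in WT 45.1, 59.7, 40.7 and 60.8 CPM and 19.0, 28.9, 23.8, 18.8 and 18.8 CPM. Again no repopulation library overlapped its naive group. Its log2 fold change was 1.16 ± 0.17 in KO, 1.80 ± 0.19 in Het and 1.404 ± 0.17 in WT. Reads of Ifit3 and its near copy Ifit3b may be split between them by the authors' counting, and so may those of Oas1a and Oas1g, Trim30a and Trim30d, Phf11b and Phf11d, the p200 genes and the guanylate-binding proteins.

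Effectors with other roles moved with them. Ifi27l2a, a small mitochondrial protein induced by interferon, had 17.95, 16.4, 20.1 and 21.0 CPM in KO repopulation libraries, against 5.96, 4.04, 3.89, 6.21 and 3.503 CPM in KO naive libraries. In Het it had 23.2, 26.7, 38 and 32.6 CPM at repopulation and 5.89, 5.39, 4.34 and 7.35 CPM in naive libraries, and in WT 27.3, 37.2, 21.7 and 26.0 CPM and 5.06, 18.1, 13.4, 9.03 and 5.68 CPM. No groups overlapped, and the log2 fold changes were 2.15 ± 0.27 in KO, 2.502 ± 0.29 in Het and 1.61 ± 0.26 in WT. Lgals3bp, a secreted glycoprotein that binds galectins and the most abundant member, had 807, 839, 847 and 861 CPM in KO repopulation libraries, against 316, 476, 405, 492 and 397 CPM in KO naive libraries. Het libraries had 1033, 1089, 1172 and 1227 CPM at repopulation and 326, 292, 301 and 336 CPM in naive libraries, and in WT 953, 1277, 885 and 1347 CPM and 369, 461, 419, 377 and 282 CPM. Every repopulation library exceeded every naive one, with log2 fold changes of 1.15 ± 0.15 in KO, 1.96 ± 0.16 in Het and 1.71 ± 0.15 in WT. Among the 11 other antiviral effectors, 8 rose in KO, 9 in Het and 6 in WT, and Rsad2 (viperin) rose in all 3.

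The p200 proteins bind DNA in the nucleus and cytoplasm. Ifi204 had 26.6, 27.5, 24.7 and 29.6 CPM in KO repopulation libraries, against 13.6, 10.3, 11.4, 11.1 and 12.2 CPM in KO naive libraries. The Het values were 50.8, 54.6, 67.7 and 67.5 CPM at repopulation and 16.0, 15.1, 19.8 and 18.9 CPM in naive libraries, and in WT 50.3, 65.2, 32.2 and 63.0 CPM and 12.5, 28.4, 15.5, 17.5 and 16.4 CPM. Repopulation stood above naive in each genotype, and the KO repopulation libraries lay below every other repopulation library. The log2 fold changes were 1.35 ± 0.19 in KO, 1.90 ± 0.21 in Het and 1.71 ± 0.19 in WT. Ifi209 had 11.1, 10.51, 9.64 and 12.9 CPM in KO repopulation libraries, against 7.58, 8.40, 8.16, 6.21 and 9.06 CPM in KO naive libraries. In Het it had 30.0, 33.5, 35.9 and 28.2 CPM at repopulation and 15.4, 9.04, 11.6 and 13.45 CPM in naive libraries, and in WT 35.9, 39.3, 21.6 and 37.7 CPM and 8.76, 17.3, 10.3, 12.2 and 15.8 CPM. The KO repopulation libraries reached the level of Het and WT naive libraries, with log2 fold changes of 0.62 ± 0.20 in KO, 1.47 ± 0.21 in Het and 1.55 ± 0.19 in WT. The KO call (adjusted p 0.044) was lost in 11 of 16 alternatives. Mndal, of the same family, fell by 2.74 in KO and by 2.42 in Het on the log2 scale. Mndal spans Ifi211 on the same strand, so that its counts are uncertain, and it was at 0 in KO repopulation library 1, whose floor of 3 counts is 0.228 CPM.

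**Figure D2:**
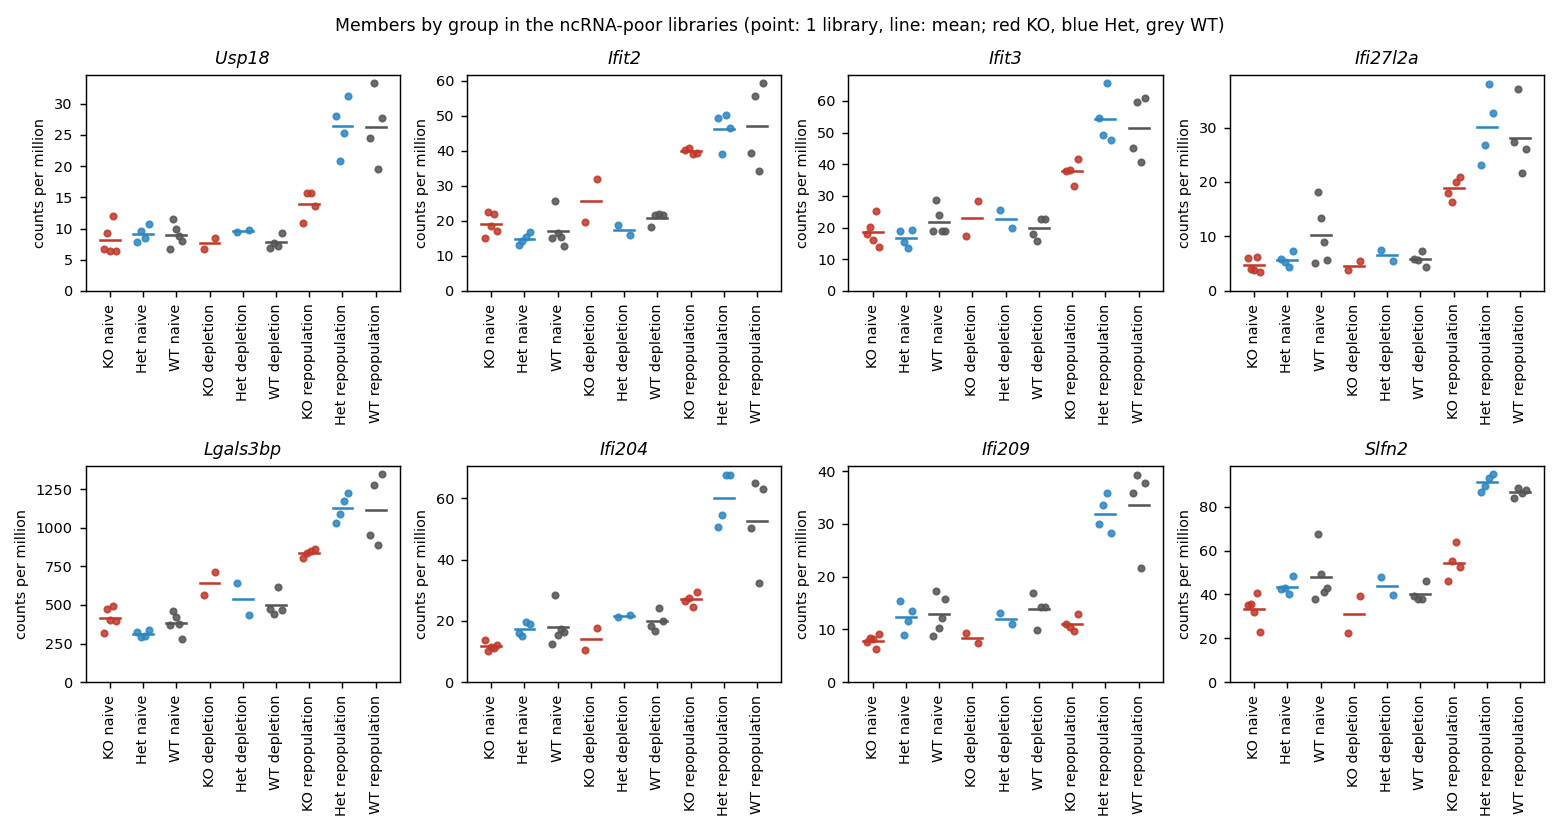
CPM (vertical axis) of 8 members in each non-coding-poor library, by treatment and genotype (horizontal axis), with points for libraries and lines for group means. The repopulation libraries stand above naive and depletion libraries of their genotype for Ifit3, Ifi27l2a, Lgals3bp and Ifi204, and the KO repopulation libraries lie below Het and WT for Ifi204, Ifi209 and Slfn2.

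Schlafen proteins restrict cell growth and viral translation. Slfn2 had 46.1, 55.4, 63.8 and 52.4 CPM in KO repopulation libraries, against 35.1, 35.7, 32.0, 40.6 and 22.8 CPM in KO naive libraries. Het libraries had 86.9, 89.5, 93.1 and 95.0 CPM at repopulation and 42.4, 42.7, 40.2 and 48.5 CPM in naive libraries, and in WT 83.8, 88.7, 86.4 and 87.7 CPM and 38.1, 67.6, 49.5, 41.0 and 43.1 CPM. It rose without overlap in every genotype, by 0.86 ± 0.15 in KO, 1.18 ± 0.16 in Het and 1.02 ± 0.15 in WT on the log2 scale. None of the guanylate-binding proteins rose. Gbp7 fell by 1.08 in KO and by 0.84 in Het on the log2 scale, with adjusted p of 0.000613 and 0.00558, and had -0.45 ± 0.20 in WT, which did not pass. Gbp2 and Gbp3 passed in no genotype. The RNA and DNA sensors gave 1 of 5 higher in KO (Zbp1), 4 of 5 in Het and 1 of 5 in WT (Zbp1).

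Beside these changes, all 10 markers of border-associated macrophages, which carry CD11b and CD45 like microglia, fell at repopulation in each genotype. Their summed level was 35.6 to 91.8 CPM at repopulation and 206.1 to 665 CPM in naive libraries of KO, 49.3 to 81.1 and 626 to 974 CPM in Het, and 30.2 to 89.7 and 643 to 1573 CPM in WT. WT naive library 2, with the 1573 CPM, was the highest of its group in 37 of the 49 members. Without that library, 30 members were called in WT. Of 8 endothelial markers 3 fell in KO, 7 in Het and 1 in WT. Their sum was 58.9 to 118.4 CPM at repopulation and 121.3 to 543 CPM in naive libraries of KO, 99.97 to 243 and 262 to 821 CPM in Het, and 140.1 to 235 and 406 to 636 CPM in WT. Of 9 monocyte markers 2 fell in KO, 2 fell and 1 rose in Het, and 1 fell in WT, where the sum was 33.2 to 56.7 CPM at repopulation and 97.7 to 156 CPM in naive libraries. Of 12 microglia markers 1 rose and 1 fell in KO, 5 rose and 4 fell in Het, and 3 rose in WT. Each of the 10 border-associated macrophage markers had a median above 0 in every group, and the part of these cells in the result was not tested.

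Against depletion, the members were higher at repopulation as well. In KO 7 rose, in Het 33 and in WT 37, with 0 lower in any genotype. Over all genes 3.35% rose and 2.02% fell in KO, 3.64% rose and 3.15% fell in Het, and 6.22% rose and 3.74% fell in WT. The median member log2 fold change was 0.58 in KO, 1.29 in Het and 1.26 in WT. Ifi204, Ifi27l2a, Ifit3, Slfn2, Trim30a and Usp18 rose in all 3 genotypes, while 23 members passed in Het and WT and not in KO. In KO the call of Ifit3 was lost in 11 of 13 alternatives and that of Usp18 in 7 of 13. The KO calls of Ifi204, Ifi27l2a, Slfn2 and Trim30a were each lost in 1 to 3 of 13. In KO and Het each depletion group holds 2 libraries. Without KO depletion library 1, which was the lowest of its pair in 41 of 49 members, 0 members passed in KO (25 at an unadjusted p under 0.05 with both libraries), and without Het depletion library 2, 8 passed in Het. Of the border-associated macrophage markers 0 of 10 changed in KO, 0 in Het, and 5 fell in WT, with sums in WT of 30.2 to 89.7 CPM at repopulation and 97.1 to 211.5 CPM at depletion. Of 12 microglia markers 4 rose and 1 fell in KO, 2 rose and 1 fell in Het, and 4 rose in WT. Their part was not tested.

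Usp18 had 6.79 and 8.53 CPM in KO depletion libraries, 9.41 and 9.72 CPM in Het and 6.92, 7.72, 7.18 and 9.28 CPM in WT. Each depletion library lay below all repopulation libraries of its genotype. The difference was 0.92 ± 0.26 in KO, 1.503 ± 0.26 in Het and 1.83 ± 0.20 in WT on the log2 scale for repopulation against depletion. Ifi27l2a had 3.78 and 5.40 CPM in KO, 7.54 and 5.49 CPM in Het and 5.90, 5.69, 7.26 and 4.41 CPM in WT depletion libraries. Its log2 fold change at repopulation was 2.09 ± 0.39 in KO, 2.24 ± 0.38 in Het and 2.34 ± 0.29 in WT. The OAS enzymes make the 2-5A signal that activates RNase L, and the median of the family was 0.58 in KO, 2.201 in Het and 2.03 in WT, with 0, 4 and 6 of 6 members higher.

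Depletion itself moved few members, and the share called, higher and lower together, was near that over all genes. Against naive, 1 rose and 2 fell in KO, 1 rose and 7 fell in Het, and 1 rose and 3 fell in WT. Over all genes 2.99% rose and 2.63% fell in KO, 8.25% rose and 6.42% fell in Het, and 3.72% rose and 3.79% fell in WT. The median member log2 fold change was 0.04 in KO, -0.13 in Het and -0.21 in WT. It was negative for 21 of 49 members in KO, 29 in Het and 39 in WT. Lgals3bp was the member that rose in each genotype, by 0.70 ± 0.18 in KO, 0.86 ± 0.18 in Het and 0.48 ± 0.15 in WT on the log2 scale. Its call was lost in 3 of 14 alternatives in KO, 1 of 13 in Het and 11 of 16 in WT. Gbp7 and Gbp3 fell in KO (by 1.27 and by 0.82) and in Het (by 1.30 and by 0.62). The Gbp3 call was lost in 3 of 14 alternatives in KO and 9 of 13 in Het, and the Gbp7 call in 2 of 14 and 1 of 13. The counts rest on few libraries, since leaving out Het depletion library 2 left 1 call in Het. Beside the members, markers of border-associated macrophages fell at depletion, 6 of 10 in KO, 10 in Het and 9 in WT. Their sum was 64.7 to 128.7 CPM at depletion and 206.1 to 665 CPM in naive libraries of KO, 69.6 to 84.4 and 626 to 974 CPM in Het, and 97.1 to 211.5 and 643 to 1573 CPM in WT. Of 12 microglia markers 1 rose and 5 fell in KO, 4 rose and 4 fell in Het, and 1 rose and 3 fell in WT. Monocyte markers gave 1 of 9 higher and 1 lower in KO, 2 lower in Het and 4 lower in WT, and the part of these cells was not tested.

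KO microglia held less RNA of the response than Het and WT at repopulation. There, 29 of the 49 members fell in KO against the mean of Het and WT and 0 rose, against 7.65% of all 15664 genes lower and 9.19% higher. The log2 fold change was negative for 48 of 49, with a median of -0.65 against -0.01 over all genes. All 3 guanylate-binding proteins and all 3 Schlafen members fell, with 6 of 8 p200 and nuclear body proteins, 3 of 6 OAS members, 3 of 5 sensors, 3 of 5 regulators, 4 of 11 other effectors, 2 of 4 IFIT members and 2 of 4 ubiquitin ligase and PARP proteins. The summed level of the 49 members was 1925 to 2016 CPM in KO repopulation libraries, 2788 to 3145 CPM in Het libraries, and 2264 to 3195 CPM in WT. Without KO repopulation library 3, 19 members were called. Beside the members, 4 of 12 microglia markers fell in KO (summed level 42070 to 44970 CPM in KO, 48240 to 52680 CPM in Het libraries, and 49900 to 55160 CPM in WT) and 5 of 16 cell cycle genes rose and 1 fell. Monocyte markers gave 3 of 9 lower and 1 higher (sum 18.5 to 48.5 CPM in KO, 27.0 to 65.5 CPM in Het libraries, and 33.2 to 56.7 CPM in WT), and 3 of 16 dissociation stress genes fell (sum 2216 to 7429 CPM in KO, 3629 to 17000 CPM in Het libraries, and 2609 to 6882 CPM in WT). Of the border-associated macrophage, endothelial and lymphocyte markers 1 each fell. The part of these genes in the result was not tested.

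Slfn8 had 32.1, 39.2, 37.8 and 36.1 CPM in KO repopulation libraries, against 81.1, 80.8, 79.6 and 77.4 CPM in Het and 73.4, 84.9, 54.1 and 79.3 CPM in WT. Gbp3 had 9.28, 8.23, 10.7 and 9.76 CPM in KO, 23.3, 21.8, 19.7 and 28.0 CPM in Het and 22.3, 22.9, 18.8 and 24.4 CPM in WT. Gbp7 had 11.7, 8.48, 10.2 and 11.9 CPM in KO, 29.2, 37.96, 29.5 and 27.7 CPM in Het and 32.6, 36.0, 27.9 and 33.2 CPM in WT. KO libraries lay below every control library for all 3 genes. The log2 fold changes were -1.06 ± 0.11 for Slfn8 (adjusted p 9.42e-08), -1.25 ± 0.15 for Gbp3 (7.00e-07) and -1.58 ± 0.20 for Gbp7 (1.06e-06). Gbp2 had 7.30, 5.29, 6.45 and 6.63 CPM in KO, 14.1, 15.6, 16.8 and 17.3 CPM in Het and 16.1, 17.9, 13.4 and 15.4 CPM in WT, and its log2 fold change was -1.29 ± 0.18 (adjusted p 3.83e-06). Oas1a had 17.7, 13.8, 13.6 and 20.2 CPM in KO, 41.1, 35.9, 47.6 and 44.6 CPM in Het and 33.99, 43.7, 25.2 and 38.1 CPM in WT, and its log2 fold change was -1.23 ± 0.20 (adjusted p 5.41e-05). For both genes every KO library lay below every control library. Ifi209, with the values given above, fell by 1.56 ± 0.19 (adjusted p 6.90e-07), and Ifi204 by 1.05 ± 0.18, Usp18 by 0.90 ± 0.18 and Slfn2 by 0.70 ± 0.14. Members that did not pass include Isg15 (-0.24 ± 0.22), Rsad2 (-0.30 ± 0.25) and Ifit2 (-0.22 ± 0.16). The protein-coding genes Gbp7, Gbp3 and Gbp2 lie in 1 stretch of chromosome 3 (GRCm38, 142530342 to 142638008). Slfn5, Slfn8 and Slfn2 lie in 1 stretch of chromosome 11 (82951349 to 83070678). Genes outside the module that may lie between them were not examined.

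Whether the change at repopulation itself differed between KO and controls was tested as an interaction. Against naive, 0 members passed (edgeR, 13 at an unadjusted p under 0.05, and 2 with DESeq2), where 0.338% of all genes passed with a positive and 0.511% with a negative difference. The median difference was -0.32 on the log2 scale, with 42 of 49 members negative. Ifi209 had -0.89 ± 0.24 (adjusted p 0.0843) and Usp18 -0.75 ± 0.23 (0.147). Against depletion, 1 member passed, with a negative difference, as did 0.0766% of all genes (0.0255% were positive), and the median was -0.54. That member was Oas3, a long OAS enzyme, with 4.79, 4.67, 4.46 and 5.57 CPM in KO repopulation and 6.02 and 5.12 CPM in KO depletion libraries. The Het values were 8.75, 7.88, 14.8 and 10.3 and 0.847 and 0.634 CPM, and in WT 7.24, 15.5, 2.81 and 7.73 and 1.12, 1.502, 0.835 and 2.12 CPM. Every Het and WT repopulation library lay above the depletion libraries of its genotype, while the KO groups overlapped. The difference of KO from controls was -3.37 ± 0.63 (adjusted p 0.0196), and 0 members passed without Het depletion library 2, KO depletion library 2 or KO repopulation library 2.

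**Figure D3:**
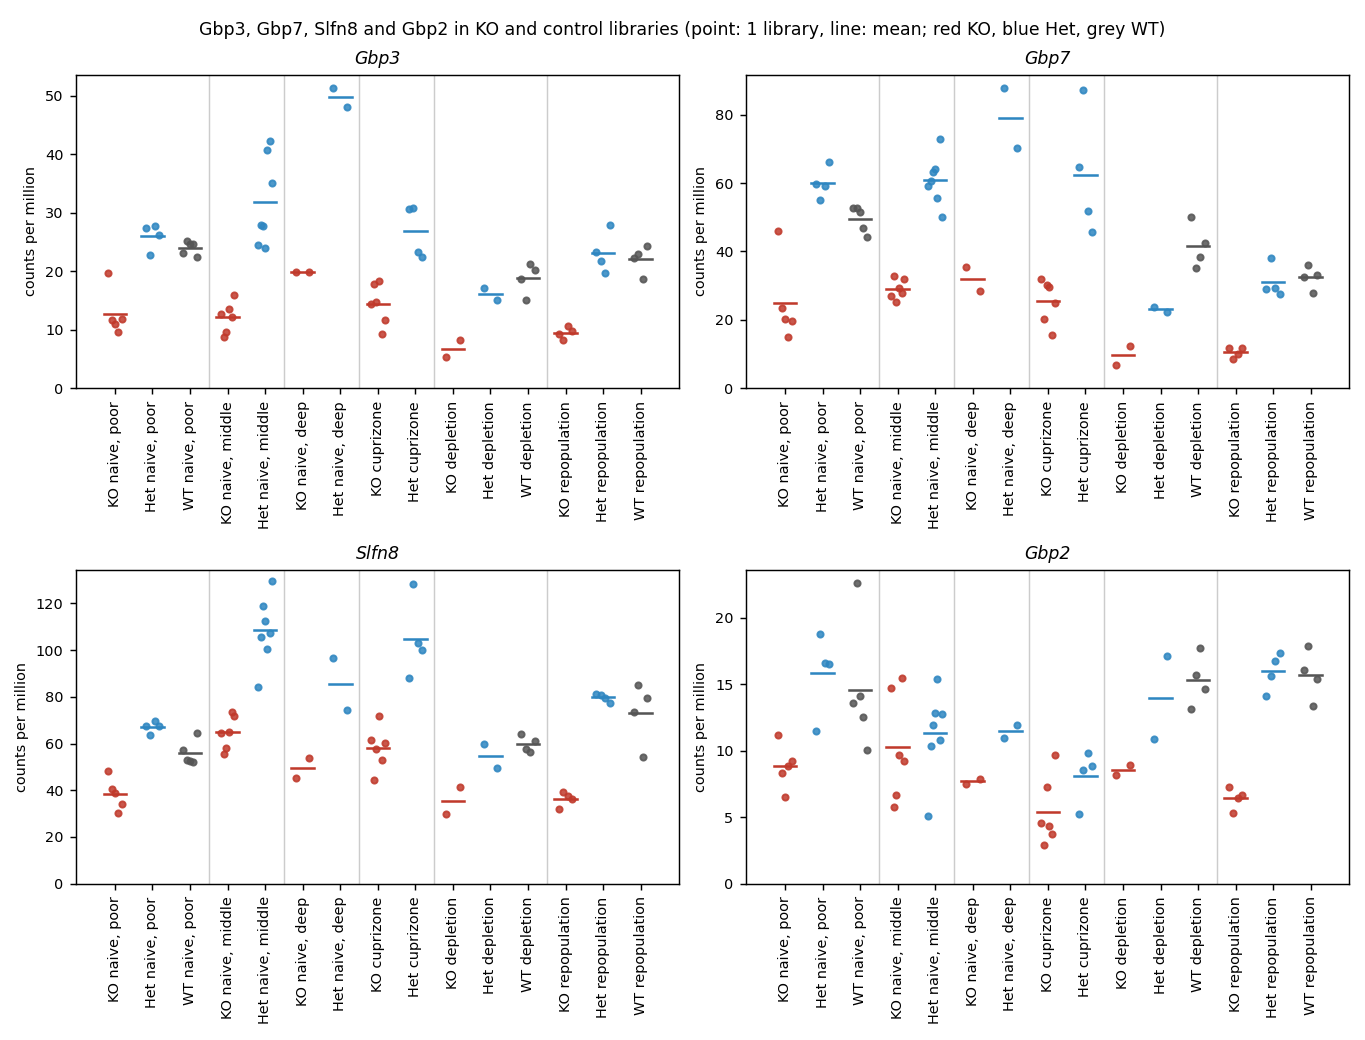
CPM (vertical axis) of Gbp3, Gbp7, Slfn8 and Gbp2 in each library, grouped by batch and treatment between the vertical lines (horizontal axis), with KO left of its controls and lines for group means. KO libraries lie below the controls for Gbp3, Gbp7 and Slfn8 in every block apart from KO naive library 1 for Gbp7, and the Gbp2 groups overlap in the naive non-coding-poor, middle-depth and cuprizone blocks.

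Naive KO libraries showed the same direction with fewer members past the test. In the non-coding-poor libraries 14 members fell and 0 rose in KO against Het and WT, with 4.24% of all genes lower and 4.62% higher. The median member was -0.34, and all 3 guanylate-binding proteins passed. Gbp3 had 19.8, 11.6, 10.9, 9.68 and 11.9 CPM in KO naive libraries, against 27.3, 22.8, 27.8 and 26.1 CPM in Het and 23.0, 25.2, 24.7, 24.6 and 22.4 CPM in WT. Gbp7 had 46.1, 23.6, 20.3, 14.98 and 19.7 CPM in KO, 59.7, 55.1, 59.1 and 66.3 CPM in Het and 52.6, 52.7, 51.6, 46.7 and 44.3 CPM in WT. KO library 1 overlapped WT for Gbp7, and every other KO value of both genes lay below all controls. Slfn8 had 48.2, 40.6, 38.7, 30.1 and 33.96 CPM in KO, 67.6, 63.7, 69.8 and 67.5 CPM in Het and 57.2, 52.8, 52.5, 52.0 and 64.6 CPM in WT, with no overlap. The log2 fold changes were -0.97 ± 0.14 for Gbp3, -1.14 ± 0.17 for Gbp7 and -0.68 ± 0.10 for Slfn8 (adjusted p 8.81e-06, 2.68e-05 and 2.60e-05), and Gbp2 was lower by 0.78 ± 0.16. Beside the members, 5 of 10 markers of border-associated macrophages fell, with a sum of 206.1 to 665 CPM in KO, 626 to 974 CPM in Het libraries, and 643 to 1573 CPM in WT. Of 12 microglia markers 4 fell and 1 rose, and of 9 monocyte markers 2 fell. Their part was not tested. Without KO naive library 4, 9 members were called, and among KO and WT replicates 1 to 4 alone 0 passed, where edgeR called 10 genes in all.

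In the middle-depth libraries 6 members fell and 0 rose in 6 KO against 7 Het, with 4.28% of all genes lower and 2.89% higher. The median member was -0.38. Gbp7 ranged from 25.3 to 32.9 CPM (median 28.5, 6 libraries) in KO, against 49.9 to 73.0 CPM (median 60.5, 7 libraries) in Het. Gbp3 ranged from 8.75 to 15.9 CPM (median 12.5, 6 libraries) in KO, against 24.1 to 42.2 CPM (median 27.9, 7 libraries) in Het. Slfn8 ranged from 55.6 to 73.6 CPM (median 64.7, 6 libraries) in KO, against 84.4 to 129 CPM (median 108, 7 libraries) in Het. The groups did not overlap for any of the 3 genes, and the log2 fold changes were -0.90 ± 0.12, -1.24 ± 0.21 and -0.59 ± 0.11. Ifi209, Sp100 and Dhx58 fell too, by 0.82 ± 0.19, 0.64 ± 0.16 and 1.00 ± 0.28. The 16 dissociation stress genes such as Fos and Egr1 moved with the groups: 14 fell in KO, with a summed level of 1291 to 3144 CPM in KO and 5291 to 13350 CPM in Het, and their part in the member differences was not tested.

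In the deep libraries, 2 KO against 2 Het, 0 members passed and 0 of 15786 genes were called (edgeR; 9 members had an unadjusted p under 0.05, and DESeq2 called 2). Gbp3 had 19.9 and 19.8 CPM in KO and 51.3 and 48.1 CPM in Het, and Slfn8 had 45.1 and 53.8 CPM in KO and 96.6 and 74.5 CPM in Het. Gbp7 had 35.3 and 28.6 CPM in KO and 87.7 and 70.2 CPM in Het. The log2 fold changes were -0.94 ± 0.20, -0.42 ± 0.26 and -0.92 ± 0.43, and none passed. The TMM scaling placed them 0.377 higher on the log2 scale than CPM does.

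Under cuprizone, 4 of the 45 members tested fell and 0 rose in 6 KO against 4 Het libraries, with 5.98% of all genes lower and 3.7% higher. Isg15, Oas3, Oasl1 and Ifi44 were below the filter in these shallow libraries. Gbp7 ranged from 15.5 to 32.1 CPM (median 27.3, 6 libraries) in KO, and Het had 64.7, 87.2, 51.9 and 45.7 CPM. Slfn8 ranged from 44.5 to 71.7 CPM (median 59.1, 6 libraries) in KO, and Het had 88.2, 128, 103 and 100 CPM. Gbp3 ranged from 9.23 to 18.4 CPM (median 14.6, 6 libraries) in KO, and Het had 30.7, 30.8, 23.2 and 22.5 CPM. No KO library reached a Het library for these genes, and the log2 fold changes were -1.22 ± 0.22, -0.78 ± 0.14 and -0.82 ± 0.21. Samd9l, a restrictor of viral translation, ranged from 1.96 to 8.74 CPM (median 6.06, 6 libraries) in KO, while Het had 22.2, 12.98, 33.9 and 17.7 CPM, with no overlap and a log2 fold change of -1.85 ± 0.39. Here too 10 of 16 dissociation stress genes fell, with a sum of 1857 to 13890 CPM in KO and 26210 to 47530 CPM in Het, and their part was not tested. Without Het cuprizone library 3, 2 members were called.

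At depletion, 4 members fell and 1 rose in 2 KO against 6 control libraries, with 2.5% of all genes lower and 2.9% higher. Gbp3 had 5.33 and 8.25 CPM in KO, 17.1 and 15.1 CPM in Het and 18.7, 15.1, 21.2 and 20.3 CPM in WT. Gbp7 had 6.87 and 12.4 CPM in KO, 23.9 and 22.3 CPM in Het and 50.2, 35.2, 38.3 and 42.5 CPM in WT. Slfn8 had 29.7 and 41.3 CPM in KO, 59.7 and 49.4 CPM in Het and 63.9, 57.6, 56.2 and 61.2 CPM in WT. Both KO libraries were the lowest for these 3 genes, which fell by 1.35 ± 0.21, 1.67 ± 0.28 and 0.67 ± 0.15. Trim30a fell by 0.45 ± 0.12, and Oas3 rose by 2.45 ± 0.50. Beside them 6 of 12 microglia markers fell in KO (38150 to 38890 CPM in KO, 49220 to 53720 CPM in Het libraries, and 49090 to 49550 CPM in WT), and 2 of 7 neutrophil markers rose, with sums of 0.0859 and 67.4 CPM in the KO libraries. Their part was not tested. Without KO depletion library 1, 3 members were called.

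Across the 6 comparisons of KO with controls, which share no libraries, Gbp3, Gbp7 and Slfn8 passed as lower in 5, all but the deep libraries. The call under cuprizone was lost in 6 of 12 alternatives for Gbp3 and in 1 of 12 each for Gbp7 and Slfn8. Ifi209 passed in 3, 13 members in 2, 13 members in 1 and 19 in none. The log2 fold change was negative in all 6 comparisons for 18 members, and in the deep libraries 0 genes passed. Neither the repeated calls nor the signs were counted over all genes, so no share can be set beside these counts.

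**Figure D4:**
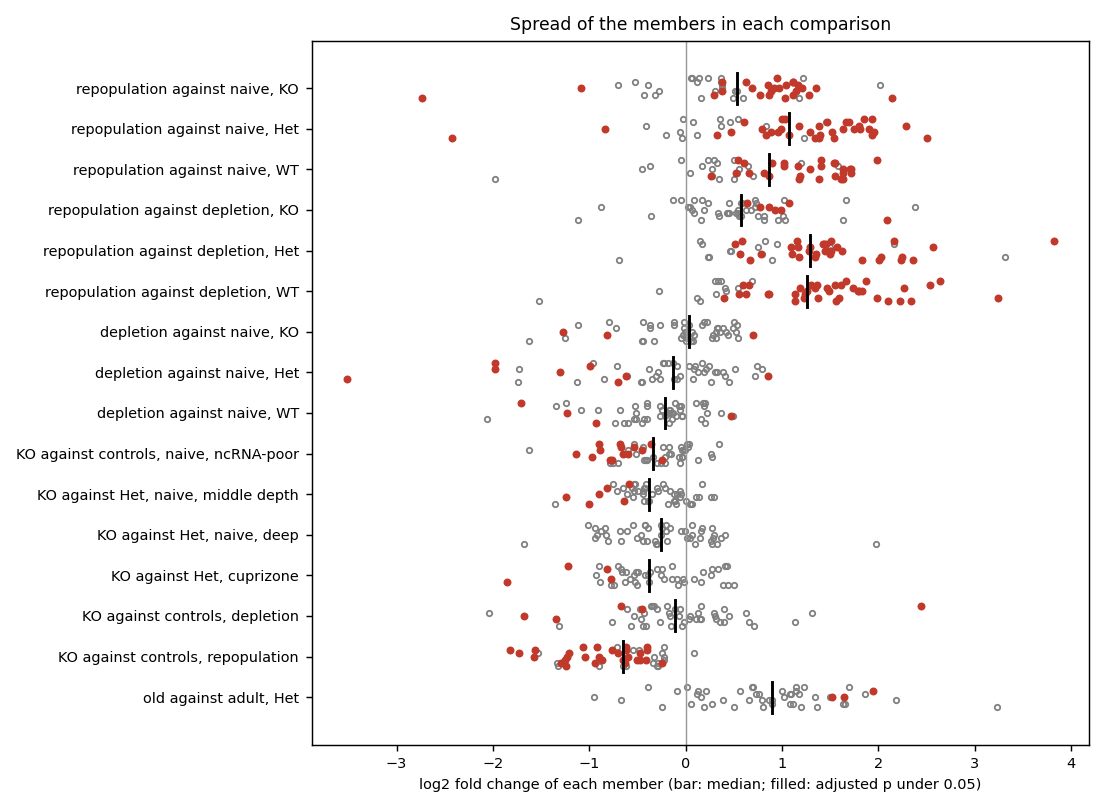
Log2 fold change (horizontal axis) of each member in 16 comparisons (rows), with filled points where the adjusted p was under 0.05 and bars at the median. The medians of repopulation lie right of 0, between 0.54 and 1.29, and those of KO against controls lie left of 0, down to -0.65 at repopulation.

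Cuprizone against middle-depth naive libraries gave 0 members higher and 1 lower in KO (Parp14, -0.71 ± 0.18) and 0 higher and 1 lower in Het (Ifit2, -0.81 ± 0.22). Over all genes 0.507% rose and 0.581% fell in KO, and 2.88% rose and 1.63% fell in Het. Both calls were lost with only the compared groups in the fit, and batch and treatment cannot be told apart.

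Old Het microglia were compared with adult Het in the deep libraries, 3 old against 2 adult. Of the 49 members 3 rose and 0 fell, with 0.437% of all genes higher and 0.108% lower, and 44 of 49 log2 fold changes were positive with a median of 0.89. The TMM scaling placed these fold changes 0.394 higher on the log2 scale than CPM does. Ifit2 had 52.7, 76.5 and 53.3 CPM in old Het and 28.6 and 21.8 CPM in adult Het libraries. Slfn5 had 41.7, 62.2 and 50.9 CPM in old Het and 20.3 and 14.7 CPM in adult Het libraries. Ifi204 had 67.6, 88.8 and 89.1 CPM in old Het and 42.8 and 32.1 CPM in adult Het libraries. No old library overlapped the adult pair for any of the 3, and the log2 fold changes were 1.65 ± 0.17, 1.94 ± 0.23 and 1.52 ± 0.22 (adjusted p 0.0362, 0.0362 and 0.0492). Of the guanylate-binding proteins none passed, and Gbp7 had 18.9, 58.6 and 21.1 CPM in old Het against 87.7 and 70.2 CPM in adult Het. Old library 2 was the highest of its group in 41 of 49 members. Without it 15 members passed, and without any other library of the comparison 0 or 1 passed. These counts are given without the share over all genes, so they cannot be read as particular to the members. Microglia markers summed to 13490 to 19290 CPM in old and 29940 to 33160 CPM in adult Het libraries. Monocyte markers summed to 144 to 310 CPM in old and 54.4 to 84.8 CPM in adult. Yet of 7 monocyte markers tested 0 rose and 0 fell, and their median log2 fold change was -1.26, opposite in direction to the sum. The part of both lists was not tested. Old library 3 had 28.6 CPM of Y-linked genes against 124.8 and 147.7 CPM in the other old libraries.

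**Figure D5:**
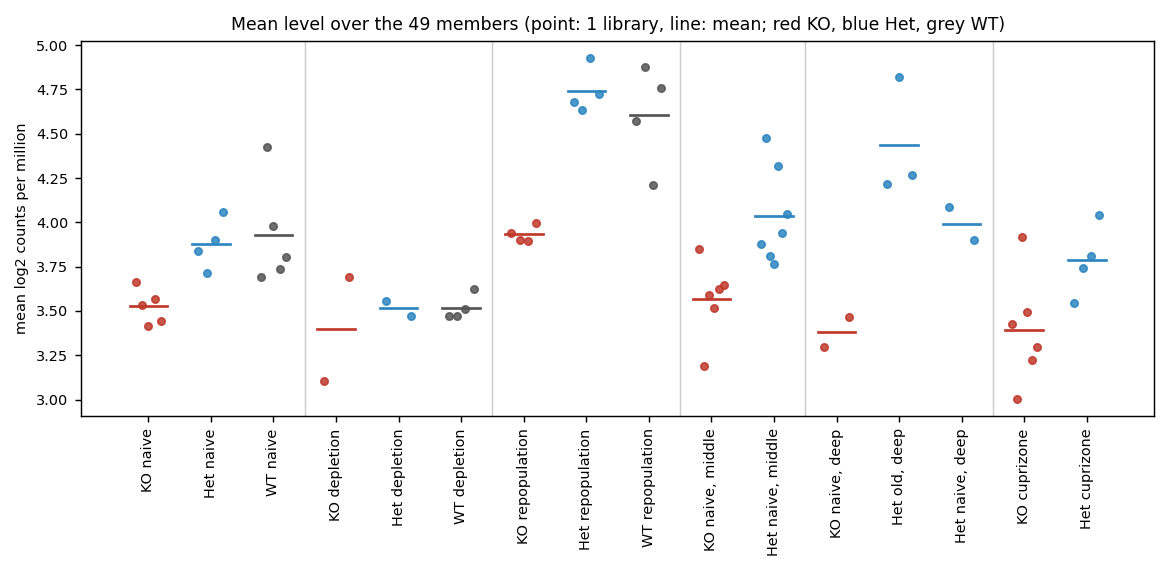
Mean log2 CPM over the 49 members (vertical axis) in each library, by group (horizontal axis), with lines for group means. KO repopulation libraries lie between 3.89 and 4.00 against 4.64 to 4.93 in Het and 4.21 to 4.88 in WT.

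The rest of the pathway was read from lists chosen from textbook knowledge, with earlier results of these data known. No interferon ligand passed the expression filter, and the summed level of the ligand list stayed at or below 3.24 CPM in every library. In KO against controls at repopulation, 5 of 19 sensing and induction genes fell, among them Tmem173, which encodes STING (-0.67 ± 0.07), Mb21d1, which encodes cGAS (-0.78 ± 0.10), and the endosomal receptor Tlr3 (-0.57 ± 0.07). The interaction against naive passed for Tlr3 (-0.47 ± 0.09, edgeR adjusted p 0.0101) and Mb21d1 (-0.58 ± 0.14, adjusted p 0.0344). In the interaction against depletion 0 of the 19 passed. Of 9 genes that restrain sensing, 3 fell, Trex1 (-0.83 ± 0.12), Samhd1 (-0.51 ± 0.09) and Adar (-0.44 ± 0.11).

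Of 55 other interferon-stimulated genes tested, 11 rose and 2 fell in KO, 18 rose and 2 fell in Het, and 15 rose and 2 fell in WT at repopulation against naive. Tor3a rose by 0.96 ± 0.11 in Het and 1.08 ± 0.10 in WT, and its interaction against naive passed (-0.71 ± 0.13, edgeR adjusted p 0.00357). In the interaction against depletion 0 of the 55 passed. In KO against controls at repopulation, 20 of these 55 fell and 0 rose, led by Ly6e (-0.60 ± 0.06), a restrictor of virus entry. Of 18 genes typical of interferon gamma 10 fell and 1 rose, among them the guanylate-binding protein Gbp5 (-1.01 ± 0.16) and the GTPase Igtp (-0.57 ± 0.08), and Cd274, which encodes PD-L1, rose (0.91 ± 0.21). Cd274 was also higher in KO in naive non-coding-poor libraries (0.96 ± 0.20), at depletion (1.73 ± 0.28), in middle-depth libraries (0.80 ± 0.21) and under cuprizone (0.85 ± 0.20). Of the 18 interferon gamma genes, 8 fell and 1 rose in KO in naive non-coding-poor libraries, and 5 fell and 1 rose at depletion. At middle depth 1 of 17 fell and 1 rose, and under cuprizone 1 of 12 fell and 1 rose. In each interaction 1 of the 18 passed, with a negative difference. Repopulation against naive gave 0 higher and 1 lower in KO, 2 and 1 in Het, and 3 and 1 in WT.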

How the data were processed

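Values are raw counts by gene, as deposited in 1 table per the file header, from 64 libraries of sorted microglia whose totals ran from 2.70 to 24.0 M (M is 1000000). The submitters' processing notes name the build GRCm38 and, without roles, Salmon 1.5.2, STAR 2.6.1d, bcl2fastq 2.20 and Trim Galore 0.6.7; which tool made the counts is not given in the sources used here. Libraries were made with a stranded total RNA kit from small RNA amounts, per the labels' protocols. Counts per 1000000 library counts (CPM) were computed here from library totals. Floors (3 counts) cover counting error only. Standard errors come from the quasi-likelihood fit and include the spread between libraries.

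Members, gene lists and batches were chosen with earlier results of these data known. Batches were set by whether Yam1 and Gm26917 took under 1% of a library's counts and, if not, by depth (over 15 M, under 5.5 M, or between). Each batch was fitted alone in edgeR 4.0.16 (R 4.3.3) with TMM scaling, filterByExpr (minimum count 10, minimum total 15) and the quasi-likelihood test, 1 mean per group, two-sided, with Benjamini-Hochberg adjustment over all genes kept and a threshold of 0.05. The filter kept 15664 genes in the non-coding-poor, 12677 in the middle-depth, 15786 in the deep and 11031 in the cuprizone libraries, and 13421 in the fit of cuprizone with middle-depth naive libraries. All 49 members passed it in every fit apart from cuprizone alone (45). Fold changes carry standard errors. Controls are the mean of Het and WT where both exist. Library values were printed for up to 6 called members per comparison with the smallest p and for members called in an interaction, and pathway genes by the same rule. The fits were tested on simulated data. Alternatives were DESeq2 size factors, DESeq2 1.42.0, no filter, only the compared groups, all 64 libraries in 1 fit, the replicate number as a block, sex read from Y-linked genes and, for groups of 2 to 5 libraries in a batch, each library left out in turn. No pair of libraries in a group agreed within sampling noise. The receptor and transducer list is not reported here.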

Additional observations from a re-analysis of the deposited data

Results flagged for a closer look

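Library values of the printed genes were examined in 119 sets of a gene and a group of 4 to 10 libraries, and in 7 of them the highest or lowest library stood apart from the rest by Dixon's 95% criterion, which chance meets in about 1 in 20 sets. Ifit2 had 18.1 CPM in WT depletion library 1, below 21.6 to 22.0 CPM in the other libraries. Ifit2 had 25.7 CPM and Ifitm3 65.9 CPM in WT naive library 2, above the nearest values of 16.4 and 39.6 CPM, and this library also held the highest sum of border-associated macrophage markers (1573 CPM). Lgals3bp had 614 CPM in WT depletion library 3, with 473 CPM next below. Oas1a had 17.6 CPM in Het naive library 4, with 12.2 CPM next below. Gbp3 had 19.8 CPM and Gbp7 46.1 CPM in KO naive library 1, above 11.9 and 23.6 CPM in the nearest KO libraries.

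Oas3 was picked out because the change at repopulation against depletion differed between KO and controls by -3.37 on the log2 scale (edgeR, adjusted p 0.0196), with KO depletion at 6.02 and 5.12 CPM, Het depletion at 0.847 and 0.634 CPM and WT depletion at 0.835 to 2.12 CPM.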

How the results depend on the processing

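Counts of called members are given, and a count moved where it left 1.5 times the value in the report. These counts, and those at an unadjusted p under 0.05 in the results, carry no share over all genes. With DESeq2 size factors, cuprizone against naive in KO gave 0 and the other counts kept within that range. Without a filter, repopulation against depletion in KO gave 4, the deep KO against Het 2, old against adult 22, and cuprizone against naive 0 in KO and 0 in Het. DESeq2 gave 2 in the deep comparison, 2 in each interaction, 24 in old against adult and 4 in cuprizone against naive in KO. With only the compared groups, repopulation against naive in KO gave 16, against depletion in KO 1, depletion against naive in KO 0, KO against controls at depletion 3, the interaction against naive 1, old against adult 0, and cuprizone against naive 0 in KO and 0 in Het. In the fit of all 64 libraries repopulation against naive in KO gave 11, against depletion 2 in KO and 17 in Het, depletion against naive 1 in KO, 3 in Het and 2 in WT, naive KO against controls 6, KO against Het under cuprizone 7, the interaction against depletion 0, old against adult 14, and cuprizone against naive 6 in KO and 4 in Het. Sex as a covariate gave 2 for depletion against naive in WT and 2 for cuprizone against naive in Het. KO against WT naive replicates 1 to 4 gave 0. The causes were not tested.

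The replicate number as a block gave 5 for depletion against naive in Het, 1 for KO against Het under cuprizone and 0 for cuprizone against naive in KO and in Het, and the other counts kept within range. Deviations of same-numbered libraries had a median correlation of -0.011 in the non-coding-poor and 0.056 in the middle-depth libraries. It was -0.102 in the deep and -0.051 in the cuprizone libraries. Whether same-numbered libraries were prepared together cannot be read from these values. With the crossed pairing of the deep KO and Het libraries, chosen after seeing the data, 0 members were called.

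Libraries were left out in turn only from groups of 2 to 5 in a batch, so no library was left out of the middle-depth groups or KO cuprizone. Counts ran from 18 to 23 in KO, 31 to 34 in Het and 23 to 30 in WT for repopulation against naive, and from 0 to 7 in KO, 8 to 32 in Het and 30 to 37 in WT for repopulation against depletion. Depletion against naive ran from 1 to 3 in KO, 1 to 9 in Het and 2 to 5 in WT. KO against controls ran from 9 to 16 in naive, 3 to 7 in depletion and 19 to 30 in repopulation libraries, 0 to 0 in the deep libraries, and 2 to 3 when a Het cuprizone library was left out. The interactions ran from 0 to 2 against naive and 0 to 1 against depletion, old against adult from 0 to 15 and cuprizone against naive in Het from 0 to 1 without a Het cuprizone library. Of 3757 results for single genes under alternatives, 3209 kept direction and call, 548 lost the call and 0 reversed. Depth limits the cuprizone libraries, where 4 members fell under the filter.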

Other observations

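Marker and cell cycle genes outside the interferon pathway are given here as values only. Plasmacytoid dendritic cells are a known source of type I interferon. Of 6 tested genes of their marker list, 4 rose in KO, 3 in Het and 1 in WT at repopulation against naive. The list shares Bst2 with the members, and microglia also express Siglech, Irf8 and Tcf4. Lymphocyte markers summed to 17.8 to 21.2 in KO repopulation libraries, against 22.5 to 29.8 in Het ones and 23.1 to 34.4 in WT ones, all in CPM. Cell cycle genes summed to 236.9 to 292 in KO repopulation libraries, against 216 to 255 in Het ones and 201 to 241 in WT ones.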
